A study of Mus musculus with 22 samples.

Results

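The mitochondrial respiratory chain and ATP synthase were followed at the transcript level in mouse liver through 71 nuclear genes among the 8251 genes that the arrays measured. A gene was a member if its symbol began with Nduf, Uqcr, Cox4, Cox5, Cox6, Cox7, Cox8 or Atp5, or was Sdha, Sdhb, Sdhc or Sdhd, on a probe set carrying 1 symbol only. The rule used no measured value, except that a gene with several probe sets was represented by the brightest one over all 22 arrays. The members comprised 29 subunits of complex I, 2 complex I assembly factors (Ndufaf1 and Ndufaf4), 4 subunits of complex II, 7 of complex III, 15 of complex IV and 14 of complex V. Among the 15 complex IV genes, 5 encode isoforms known from muscle, heart or testis (Cox6a2, Cox6b2, Cox7a1, Cox8b and Cox8c). A further 10 probe sets that carry several symbols, among them those of Cox7c, Ndufs5, Ndufs6 and Ndufa11, were left out by the rule.

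All livers came from mice lacking interferon-gamma. One genotype, IFNg-/-, lacked that gene alone, and the other, SOCS1-/-IFNg-/-, also lacked SOCS1, the suppressor of cytokine signalling that limits the response to the cytokine. Recombinant interferon-gamma (4 µg in 100 µl) was injected intraperitoneally, and livers were taken at 0.5, 1, 2, 4, 12, 16, 24 or 48 h. Controls were 1 liver without injection and livers taken 4 h and 12 h after 100 µl of phosphate-buffered saline (PBS). Each of the 11 conditions was measured once per genotype, so there were no replicates. Whether RNA of 1 mouse or of several was put on an array is not stated in the labels, and neither are age and sex. In the tests of time, the arrays of both genotypes at a condition stood in for replicates. Values were averaged over the 3 control conditions, the early times (0.5 to 4 h) or the late times (12 to 48 h). In the tests of genotype, the pairs within such a period stood in for replicates. The p-values for time therefore measure how unevenly the genotypes differ from condition to condition, and not the spread between times or between controls. A genotype difference confined to late times adds to that error. The p-values for genotype measure the spread of the pair differences within a period. As these are whole livers, fewer cells of a type and less RNA per cell cannot be told apart.

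Oxidative phosphorylation passes electrons from NADH through complex I, and from succinate through complex II, to ubiquinone, and then through complex III and cytochrome c to oxygen at complex IV. Complexes I, III and IV pump protons across the inner membrane, and complex V, the ATP synthase, uses that gradient to make ATP. Hepatocytes are rich in mitochondria and draw on this chain for gluconeogenesis, urea synthesis and fatty acid oxidation. Most subunits are encoded in the nucleus, and the genes for them are known targets of the nuclear respiratory factors and GABP. Complex II has no mitochondrially encoded subunit and also serves the citric acid cycle.

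The values are log2 expression summaries, and all differences below are on the log2 scale. Of the 71 members, 59 had a mean above that of the median gene and 12 below it. Over the 22 arrays a member spanned between 0.27 and 1.04, with a median span of 0.58, against 0.47 for the median gene. All 9 measured hepatocyte markers lay above the median gene, as did 2 of 10 striated muscle markers. Socs1 reached 9.21 in IFNg-/- at 2 h and stayed between 6.57 and 7.02 in SOCS1-/-IFNg-/-, while Ifng lay between 2.18 and 2.61 on all arrays. Some arrays stood apart from their labels. Cxcl9, an interferon-induced chemokine, measured 7.76 and 8.31 in the livers taken 12 h after PBS, and 4.16 to 4.46 in the other 4 control livers. At 4 h the interferon-induced factor Irf1 stood at 7.71 in IFNg-/- and at 10.7 in SOCS1-/-IFNg-/-, and the latter array had the lowest median correlation with the others (Pearson r of 0.972 across genes). Cxcl9 at 4 h was 8.06 in IFNg-/- and 11.3 in SOCS1-/-IFNg-/-. The labels of the IFNg-/- 4 h and untreated samples carry the injection protocol in another wording, with the same dose and volume but no list of times. The untreated livers are nevertheless named as untreated, and no dose is assigned to them here. Whether these samples were handled differently is not given in the sources used here. This bears on every 4 h value and, through the untreated controls, on every difference from control. The 3′ minus 5′ Gapdh difference, a measure of RNA integrity, was highest at 1.16 on the SOCS1-/-IFNg-/- 12 h array, against 0.37 to 0.85 on the other arrays. The same difference for Actb was highest at 1.56 on the SOCS1-/-IFNg-/- 48 h array and lowest at 0.33 on the SOCS1-/-IFNg-/- 4 h array; it was 1.13 on the SOCS1-/-IFNg-/- 12 h array, and 1.32 and 1.31 in the untreated livers of the genotypes. The members' period medians, Ndufaf4, the late calls and most calls among other gene lists are given below without some of the arrays that bear on them, but the response at 4 h itself rests on the 4 h pair.

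**Figure D1:**
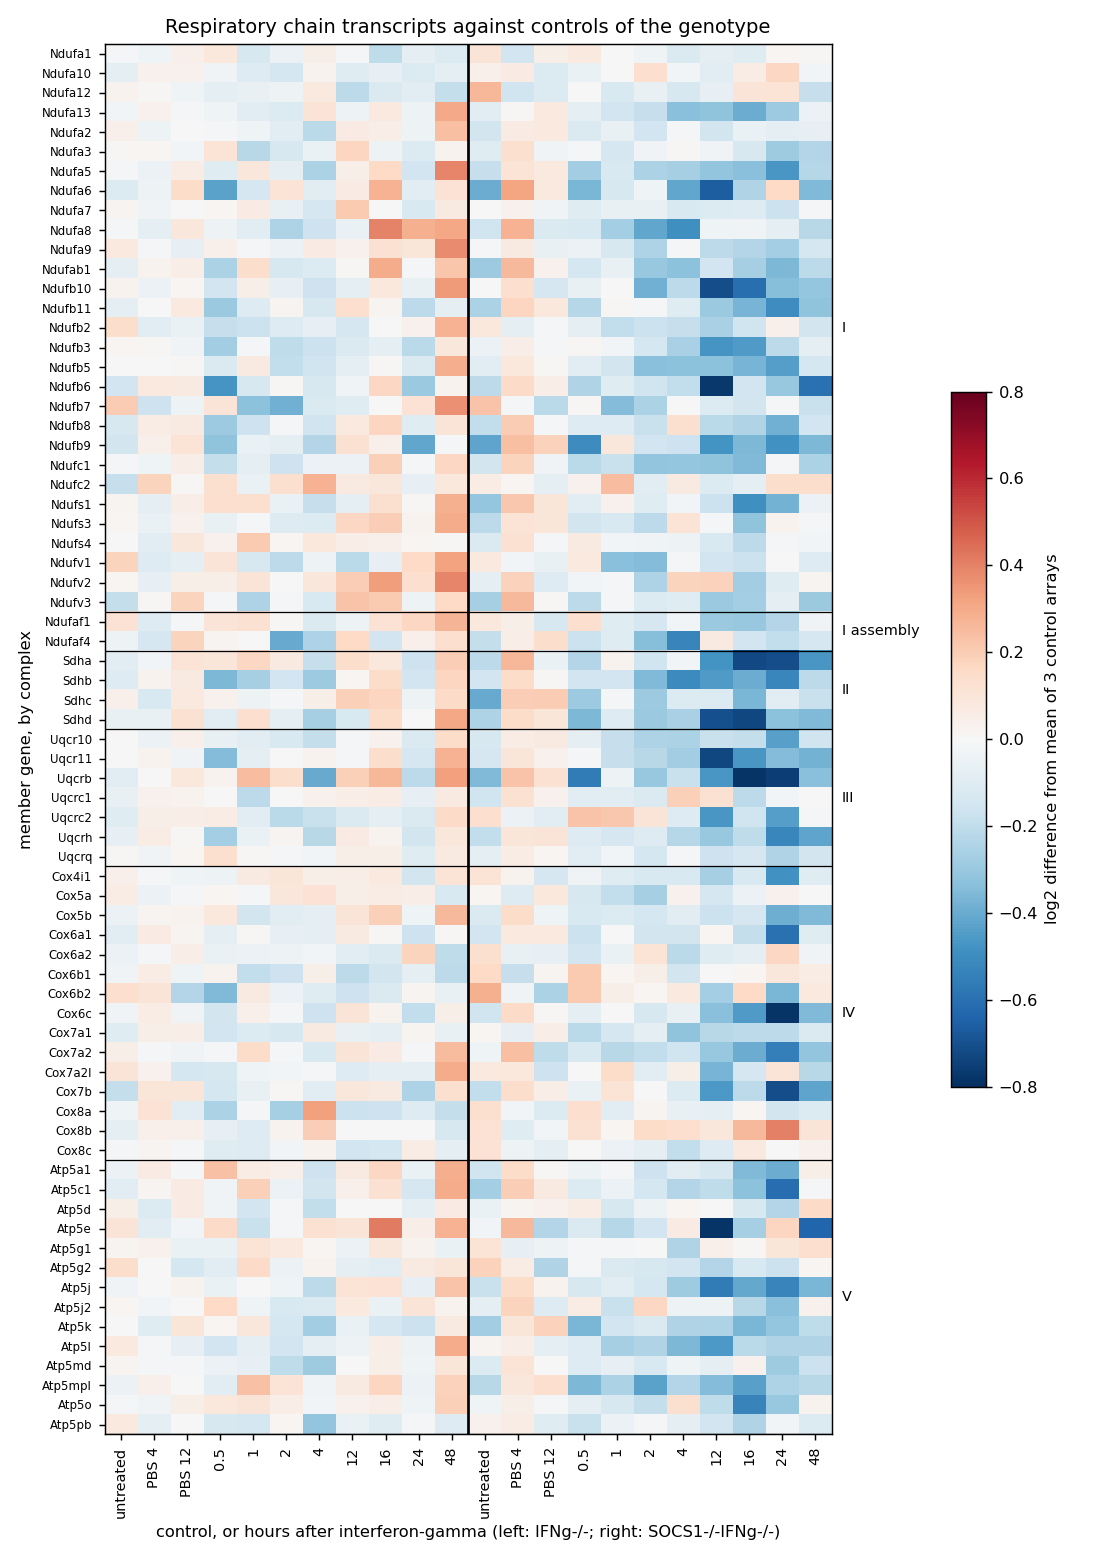
Each row is 1 of the 71 members, grouped by complex, and each column 1 of the 22 arrays; colour gives the log2 difference from the mean of the 3 control arrays of that genotype, with the scale ending at 0.8 in either direction. In the SOCS1-/-IFNg-/- columns, 55 to 62 of the 71 members were below control (blue) on each array at 0.5 to 4 h and 56 to 63 at 12 to 48 h, and the blue is deeper at the later times, with medians over members of -0.24 to -0.14 against -0.14 to -0.086.

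The first question was whether interferon-gamma changed the respiratory chain transcripts at each time. The only member to pass the threshold was Ndufaf4, a complex I assembly factor, which fell by 0.37 ± 0.087 (SE) at 2 h and by 0.39 ± 0.087 at 4 h, a change of -22.7% and -23.5% (2 arrays against 6; limma adjusted p = 0.0440 and 0.0174). In IFNg-/- livers its level was 5.45, 5.36 and 5.67 in the untreated, PBS 4 h and PBS 12 h controls, and 5.52, 5.50, 5.09 and 5.25 at 0.5, 1, 2 and 4 h. In SOCS1-/-IFNg-/- livers it was 5.40, 5.65 and 5.73 in the same controls, and 5.42, 5.50, 5.26 and 5.07 at these times. All 4 arrays at 2 and 4 h lay below all 6 control arrays. From 12 h on, at 5.34 to 5.65 in IFNg-/- and 5.40 to 5.67 in SOCS1-/-IFNg-/-, the levels overlapped those of the controls. Averaged over the early times Ndufaf4 stood at -0.22 ± 0.057 (adjusted p = 0.103), and the other assembly factor, Ndufaf1, at 0.0002 ± 0.069. Without the PBS 12 h pair the Ndufaf4 difference was -0.29 at 2 h and -0.31 at 4 h, and neither passed (adjusted p = 0.209 and 0.102). The 2 h call was also lost, with the value at -0.37, without the 0.5, 1, 12 or 24 h pair (adjusted p of 0.0502 to 0.0650), and the 4 h call with array weights (adjusted p = 0.217). The probe set of Ndufaf4 is dim, its second probe set is dimmer still, and the mean of both gave -0.22 at 2 h (adjusted p = 0.195) and -0.28 at 4 h (adjusted p = 0.0364).

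No other member passed at any time. At 0.5, 1, 2 and 4 h, 0, 0, 1 and 1 of the 71 members were called, where 0%, 0.158%, 1.66% and 5.03% of all genes were. At 12, 16, 24 and 48 h, 0 members were called, beside 1.42%, 0.448%, 0.17% and 0.0121% of all genes. Against PBS of the same hour no member was called at 4 h or 12 h either, where 1.36% and 0.109% of all genes were. A share of 1 in 71 is no higher than that over all genes at 2 h or 4 h. At 24 h, 23 members had an unadjusted p under 0.05, which 9.88% of all genes had; 21 of them were lower and 2 higher. The lower ones were led by Cox6a1, the liver form of subunit 6a, at -0.38 ± 0.080 (adjusted p = 0.0944), and the 2 higher ones were the muscle isoforms Cox8b at 0.20 ± 0.092 and Cox6a2 at 0.17 ± 0.077.

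Averaged over both genotypes, most members had a small negative value. Their median was -0.088 and -0.11 at 2 and 4 h, reached -0.15 at 24 h, and was -0.10 and -0.084 in between. By 48 h it was -0.012, and 40 of 71 were lower. Averaged over the early times, 65 of 71 members were lower than control, with a median of -0.084, while 58.1% of all genes were lower, with a median of -0.013. Over the late times 64 of 71 were lower, with a median of -0.082, beside 52.3% and -0.0040 over all genes. That late average joins genotypes that differed. In IFNg-/- the late mean was below the control mean for 20 of 71 members, with a median difference of 0.042 (56.6% of all genes were lower). In SOCS1-/-IFNg-/- it was below for 65 of 71, with a median difference of -0.22 (43.6% of all genes). The other 963 genes of similar brightness (mean log2 of 8 to 11) had medians of -0.027 early and -0.0017 late. In both periods 0 members were called, against 0.957% of all genes early and 0.594% late. In each, 12 members had an unadjusted p under 0.05, all lower (16.9% of members, against 10.7% and 8.22% of all genes). Of the genes of similar brightness, 14.2% early and 16.0% late had such a p, near the members' share. The median standard error of a member was 0.070, close to the size of these medians. Without the PBS 4 h pair the count lower was 55 early and 60 late. Without the PBS 12 h pair it was 64 early and 60 late, with medians of -0.081 and -0.076, and without the 4 h interferon-gamma pair it was 62 early, with a median of -0.081. Leaving out the untreated pair gave 57 early and 59 late, with medians of -0.10 and -0.097. Leaving out the 12 h interferon-gamma pair gave 60 late, with a median of -0.073.

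Complexes II and III had the lowest medians and complex IV the least negative early one. In the early period the medians were -0.11 for complex I, -0.12 for II, -0.13 for III, -0.043 for IV and -0.066 for V. In the late period they were -0.069, -0.20, -0.15, -0.091 and -0.090 in the same order. These averages cover both genotypes, whose late values went apart as described below.

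In complex I the lowest early estimates by t were Ndufa8 (-0.23 ± 0.082), Ndufb2 (-0.15 ± 0.056) and Ndufc1 (-0.19 ± 0.073), all accessory subunits. The late ones were Ndufb9 (-0.24 ± 0.086), Ndufb3 (-0.19 ± 0.069) and Ndufb11 (-0.20 ± 0.074), all of the membrane arm. In complex III the small subunit Uqcr10 (-0.15 ± 0.054 early, -0.11 ± 0.054 late), the hinge protein Uqcrh (-0.14 ± 0.075 and -0.18 ± 0.075) and Uqcr11 (-0.14 ± 0.11 and -0.21 ± 0.11) led in both periods. In complex V they were Atp5l (subunit g, -0.18 ± 0.069 early), Atp5pb (subunit b of the peripheral stalk, -0.11 ± 0.049 early and -0.099 ± 0.049 late), Atp5k (subunit e, -0.15 ± 0.066 and -0.18 ± 0.066) and Atp5j (subunit F6, -0.19 ± 0.092 late). In complex IV they were Cox7a1, Cox6a1 and Cox8c early, and Cox6c (-0.24 ± 0.087), Cox7b (-0.22 ± 0.089) and Cox6a1 (-0.12 ± 0.053) late. None of these passed after adjustment; the smallest adjusted p of a member was 0.103 early and 0.388 late.

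Of the 4 complex II subunits, Sdhb, the iron-sulphur subunit, had the lowest early value of any member (-0.28 ± 0.086, adjusted p = 0.199). Its level was 9.42, 9.51, 9.62 and 9.49 at 0.5 to 4 h in IFNg-/- livers, all below the 3 controls at 9.68, 9.81 and 9.85. In SOCS1-/-IFNg-/- livers it was 9.76, 9.75, 9.56 and 9.40, against 9.75, 10.1 and 9.92 in controls, and there the groups overlapped. The membrane anchors Sdhd (-0.16 ± 0.10) and Sdhc (-0.085 ± 0.087) were lower by less than 2 standard errors. Over the late times, averaged over both genotypes, the flavoprotein Sdha stood at -0.27 ± 0.11, Sdhd at -0.22 ± 0.10, Sdhb at -0.18 ± 0.086, and none was called. For Sdha the genotypes went apart at these times, as given below.

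Some subunits of complex IV come as a liver or general form and a form of other tissues. Subunit 6a stood at -0.084 ± 0.053 early and -0.12 ± 0.053 late for the liver form Cox6a1, and at -0.058 ± 0.051 and -0.034 ± 0.051 for the muscle form Cox6a2. Subunit 7a stood at -0.089 ± 0.085 and -0.14 ± 0.085 for Cox7a2, and at -0.13 ± 0.055 and -0.12 ± 0.055 for the muscle form Cox7a1. Subunit 8 stood at -0.024 ± 0.075 and -0.12 ± 0.075 for Cox8a, and at 0.060 ± 0.061 and 0.090 ± 0.061 for the muscle form Cox8b. For subunit 6b the values were -0.021 ± 0.064 and -0.060 ± 0.064 for Cox6b1, and -0.0085 ± 0.084 and -0.091 ± 0.084 for the testis form Cox6b2. The general subunit Cox4i1 stood at -0.025 ± 0.055 and -0.11 ± 0.055. Differences between the forms were not tested, and the widest late gap was that between Cox8a and Cox8b. Some of these probe sets were dim. In IFNg-/- controls the means were 3.6 for Cox8a, 3.3 for Cox7a1 and 5.8 for Cox4i1, below the median gene at 6.06. Cox8b, a muscle form, stood there at 6.9. How well these probe sets report the forms named was not tested.

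**Figure D2:**
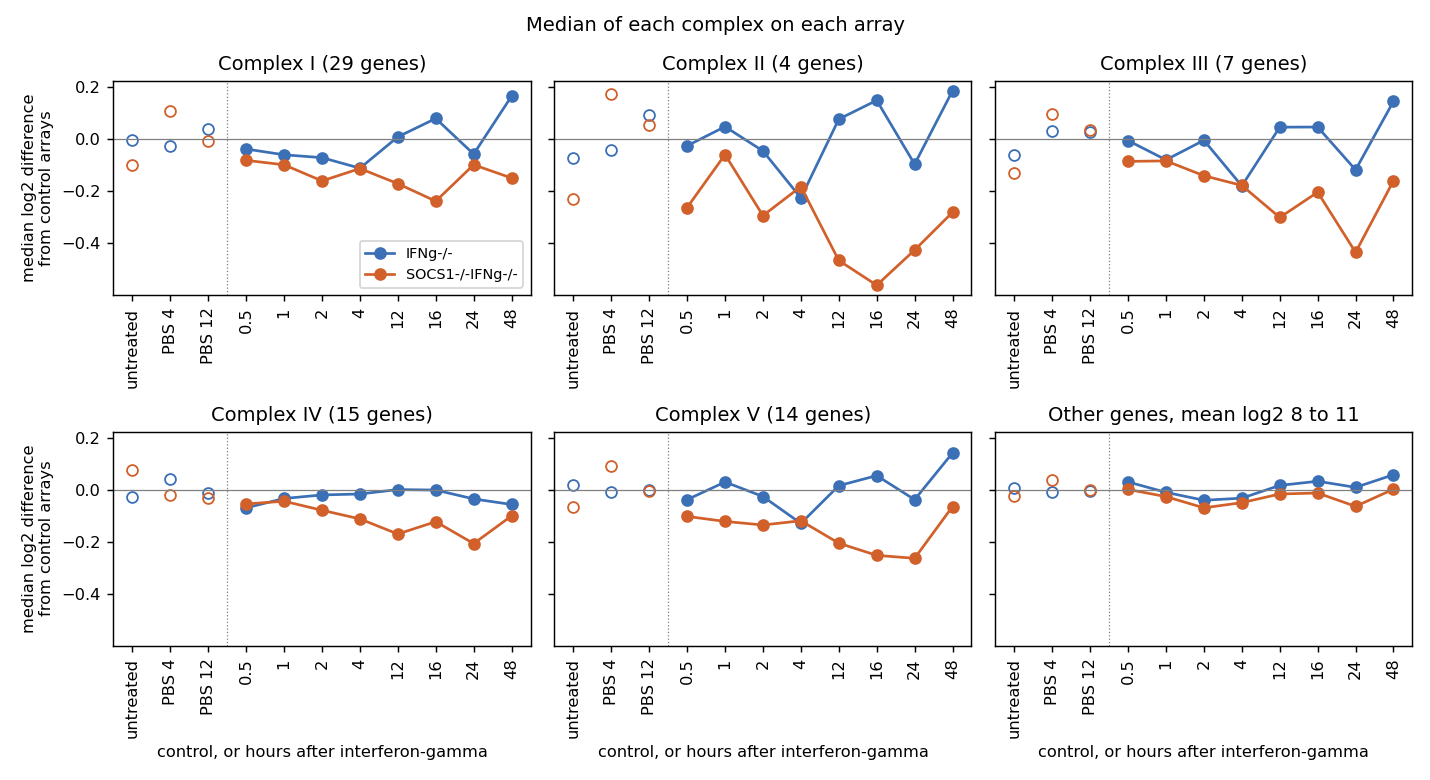
Median log2 difference of each complex's members from the mean of the 3 control arrays of the genotype (open circles, the controls themselves; filled circles, hours after interferon-gamma on an axis of equal steps), 1 point per array, with other genes of similar brightness in the last panel. The SOCS1-/-IFNg-/- points at 12 to 48 h lie below those of IFNg-/- in every complex, and lowest in complex II (-0.56 at 16 h).

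The second question was whether loss of SOCS1 altered these transcripts. At 12, 16, 24 and 48 h the median member of the SOCS1-/-IFNg-/- livers stood at -0.21, -0.21, -0.24 and -0.14 relative to its own controls. In IFNg-/- livers the median member stood at 0.014, 0.053, -0.056 and 0.13 at the same times. The 4 late arrays lay below all 3 controls of the genotype for 20 of 71 members in SOCS1-/-IFNg-/-, where 2.51% of all genes did so, and for 3 members in IFNg-/- (5.77% of all genes). The 20 were 6 members of complex I, 3 of II, 4 of III, 5 of IV and 2 of V. Between the genotypes, the late arrays did not overlap for 9 members, all lower in SOCS1-/-IFNg-/- (2.02% of all genes were lower without overlap): Ndufab1, Ndufb10, Ndufb11, Sdha, Uqcr11, Uqcrc2, Cox6c, Cox7a2 and Atp5j.

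In the fit on the 11 within-pair differences, the difference between genotypes at late times minus that in controls had a median of -0.27 over the members. It was lower for 62 of 71 members, and 40.1% of all genes were lower, with a median of 0.038. The medians were -0.31 for complex I, -0.53 for II, -0.25 for III, -0.14 for IV and -0.26 for V. Among members, 35 of 71 (49.3%) had an unadjusted p under 0.05, 34 of them lower, against 11.4% of all genes and 24.4% of the other genes of similar brightness. The one higher member was Cox8b, a muscle isoform (0.25 ± 0.11). No member passed the adjusted threshold, nor did any gene (0%); the smallest adjusted p was 0.0786, for Atp5j (-0.56 ± 0.090). With array weights 9 members were called, and the share of all genes called with those weights is not given here. The size of this median depended on the controls, and was -0.34 without the untreated pair and -0.20 without the PBS 4 h pair.

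Both sides of that comparison contributed. In the 3 control pairs 61 of 71 members were higher in SOCS1-/-IFNg-/-, with a median of 0.11, and on the PBS 4 h pair alone the median was 0.22. The control arrays did not overlap for 11 members, all higher in SOCS1-/-IFNg-/- (2.82% of all genes). None of the 71 was called in the control pairs, against 0.0121% of all genes. An unadjusted p under 0.05 was found for 9 members (12.7%), against 4.52% of all genes and 8.00% of the other genes of similar brightness. The late pairs were therefore also taken alone, a comparison chosen after these values were seen.

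In the 4 late pairs alone, 6 of 71 members were lower in SOCS1-/-IFNg-/- and none higher, where 0.836% of all genes (69, 58 of them lower) were called. They came from all 5 complexes: Ndufb10 of complex I, Sdha of II, Uqcrc2 of III, Cox6c and Cox7b of IV, and Atp5j of V. The median member stood at -0.16, 61 of 71 were lower, and 33 had an unadjusted p under 0.05, all lower, against 15.3% of all genes and 29.6% of the other genes of similar brightness. The medians by complex were -0.14 for I, -0.32 for II, -0.22 for III, -0.086 for IV and -0.12 for V. Of the 45 members with a mean log2 of 8 to 11, 44 were lower, with a median of -0.19; of the 12 members below the median gene, 8 were lower, with a median of -0.034.

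**Figure D3:**
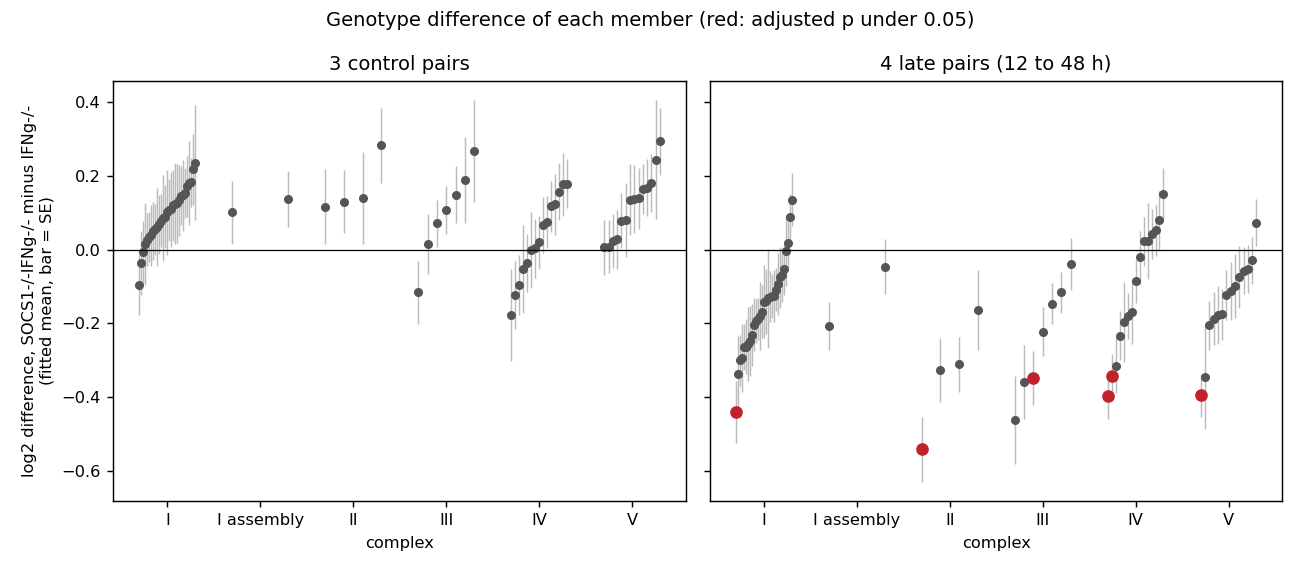
Fitted log2 difference SOCS1-/-IFNg-/- minus IFNg-/- of each of the 71 members (points, bar = SE), sorted within each complex, in the 3 control pairs and the 4 late pairs; red points passed the adjusted threshold of 0.05. In controls 61 members lie above 0 and in late pairs 61 lie below it, with 6 red points among the latter.

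Sdha, the flavoprotein that oxidises succinate, had the largest difference of any member, at -0.54 ± 0.088 (-31.3%, adjusted p = 0.0200). In late IFNg-/- livers (12, 16, 24 and 48 h) it measured 7.76, 7.71, 7.46 and 7.82. The late SOCS1-/-IFNg-/- livers measured 7.26, 7.02, 7.03 and 7.28. The controls (untreated, PBS 4 h, PBS 12 h) were at 7.54, 7.60 and 7.73 in IFNg-/- and at 7.53, 8.00 and 7.68 in SOCS1-/-IFNg-/-. The late SOCS1-/-IFNg-/- arrays thus lay below all other groups named here. Of its partners, Sdhb stood at -0.31 ± 0.075 (adjusted p = 0.0636), Sdhd at -0.33 ± 0.088 (adjusted p = 0.0901) and Sdhc at -0.16 ± 0.11 (adjusted p = 0.504).

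Atp5j, subunit F6 of the peripheral stalk of the ATP synthase, stood at -0.40 ± 0.059 (-24.0%, adjusted p = 0.0128). It was at 9.32, 9.33, 9.15 and 9.44 in late IFNg-/- livers and at 8.82, 8.97, 8.85 and 9.01 in late SOCS1-/-IFNg-/- livers. Controls were at 9.18, 9.22 and 9.24, and at 9.20, 9.53 and 9.41. The late SOCS1-/-IFNg-/- arrays did not overlap with any of these, and the control arrays of that genotype were the higher ones in the PBS pairs.

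Both complex IV members were small membrane subunits. Cox6c stood at -0.40 ± 0.061 (-24.1%, adjusted p = 0.0149), with late IFNg-/- levels of 10.6, 10.5, 10.3 and 10.5 against 10.2, 10.1, 9.77 and 10.2 in SOCS1-/-IFNg-/-. Its controls were at 10.4, 10.5 and 10.4, and at 10.4, 10.7 and 10.6. The late arrays of the genotypes did not overlap, and the 24 h array was the lowest of each. Cox7b stood at -0.34 ± 0.061 (-21.2%, adjusted p = 0.0307), with late IFNg-/- levels of 9.25, 9.23, 8.91 and 9.28 against 8.81, 9.06, 8.56 and 8.85 in SOCS1-/-IFNg-/-. Its controls were at 8.96, 9.25 and 9.26, and at 9.08, 9.42 and 9.33. Here the genotypes overlapped over the late times, since both were low at 24 h, while each SOCS1-/-IFNg-/- array was lower than its pair.

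Ndufb10, an accessory subunit in the membrane arm of complex I, stood at -0.44 ± 0.083 (-26.3%, adjusted p = 0.0333). Its late IFNg-/- levels were 8.89, 9.06, 8.92 and 9.32 against 8.39, 8.50, 8.75 and 8.79 in SOCS1-/-IFNg-/-, without overlap. Controls were at 9.0, 8.93 and 8.99, and at 9.09, 9.23 and 8.96. Uqcrc2, core protein 2 of complex III, stood at -0.35 ± 0.073 (-21.4%, adjusted p = 0.0470). Its late IFNg-/- levels were 8.45, 8.49, 8.45 and 8.72 against 7.98, 8.29, 8.00 and 8.44 in SOCS1-/-IFNg-/-. Controls were at 8.47, 8.61 and 8.61, and at 8.58, 8.40 and 8.36, so that Uqcrc2 was already lower in SOCS1-/-IFNg-/- in both PBS pairs and its late arrays overlapped with those controls. Next in order, and not called, were Ndufa5 (-0.30 ± 0.069, adjusted p = 0.0586), Ndufb11 (-0.26 ± 0.063) and Cox7a2, the liver form of subunit 7a (-0.32 ± 0.075; both adjusted p = 0.0606). The highest member was Cox8b, at 0.15 ± 0.071 (adjusted p = 0.332).

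**Figure D4:**
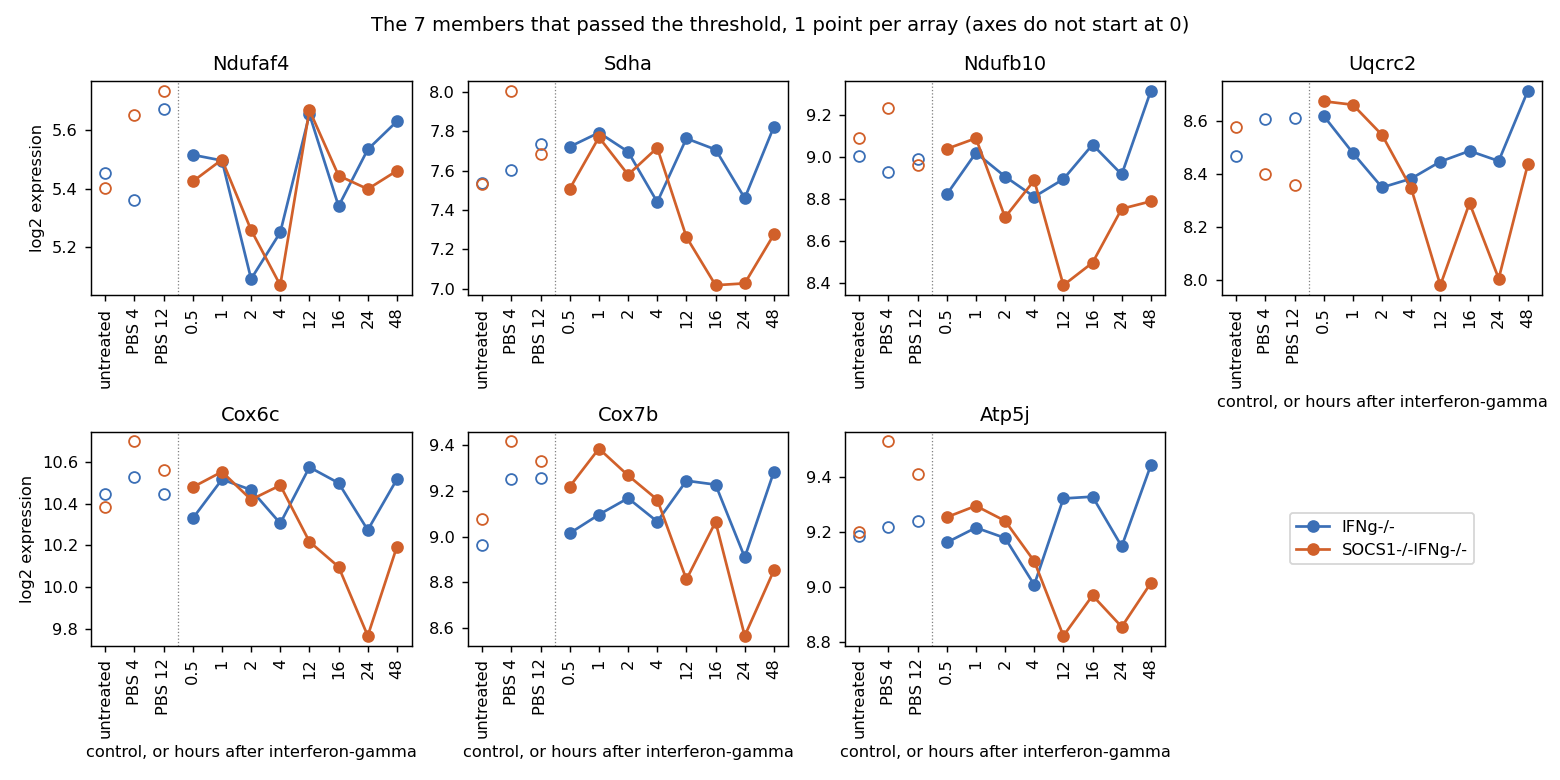
Log2 level of the 7 members that passed the threshold in any comparison, 1 point per array (open circles, controls; filled circles, hours after interferon-gamma on an axis of equal steps); the vertical axes do not start at 0. Ndufaf4 is lowest at 2 and 4 h in both genotypes, and the other 6 lie lower in SOCS1-/-IFNg-/- than in IFNg-/- in each of the 4 late pairs.

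These 6 calls rested on few arrays. Without the 12 h pair, which holds the array with the highest Gapdh 3′ minus 5′ difference, none of the 6 was called, with values of -0.31 to -0.56; without the 16 h or the 48 h pair 3 members were called, and without the 4 h pair 11. With an unpaired model of 6 groups none was called (adjusted p of 0.114 to 0.244). With the arrays centred on other genes of similar brightness, 3 were called (Sdha, Atp5j and Cox6c) and the member median was -0.0999. Averaged with their dimmer probe sets, Cox6c stood at -0.11 and Ndufb10 at -0.21, and neither passed (adjusted p = 0.453 and 0.141). How many of all genes were called in these alternative fits is not given here. The median of hepatocyte markers was -0.060 in the late pairs (6 of 9 lower, 0 called), and that of the bright genes -0.047. Of the marker lists of other cell types, those of T and NK cells (0 of 7 lower, median 0.076), neutrophils (1 of 9, 0.097) and striated muscle (1 of 10, 0.083) had few members lower, and none of their members was called. These lists are mostly dim, with 2 of 7, 3 of 9 and 2 of 10 markers above the median gene. Over all genes 41.0% were lower in the late pairs, with a median of 0.024. Kupffer cell markers had a median of -0.028 (6 of 9 lower), with Clec4f called lower (-0.48 ± 0.087, adjusted p = 0.0307), stellate cell markers one of 0.070 (3 of 7 lower), with Reln called lower (-0.56 ± 0.070, adjusted p = 0.00669), and endothelial markers one of -0.0050 (6 of 7 lower, 0 called). The Clec4f call was lost without the 12, the 16 or the 24 h pair, and that of Reln held in all 11 fits that each left out 1 pair. The part of RNA quality, brightness or cell composition in the members' difference was not tested beyond these values.

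Promoter windows are shown for the called members that the RefSeq table lists (5 of the 7), because these are the members that passed the threshold, Ndufaf4 over time and the others between genotypes. Each holds 250 bases before to 50 after the transcript start, 5′ to 3′ on the gene's strand, build GRCm38.p6; capitals mark a match on either strand to the nuclear respiratory factor 1 letters GCGCANGCG, with overlapping matches merged. They are Ndufaf4 at chr4:24897833-24898132 (plus strand), Ndufb10 at chr17:24724374-24724673 (minus), Sdha at chr13:74350191-74350490 (minus), Cox7b at chrX:106015450-106015749 (plus) and Atp5j at chr16:84835576-84835875 (minus).
Ndufaf4: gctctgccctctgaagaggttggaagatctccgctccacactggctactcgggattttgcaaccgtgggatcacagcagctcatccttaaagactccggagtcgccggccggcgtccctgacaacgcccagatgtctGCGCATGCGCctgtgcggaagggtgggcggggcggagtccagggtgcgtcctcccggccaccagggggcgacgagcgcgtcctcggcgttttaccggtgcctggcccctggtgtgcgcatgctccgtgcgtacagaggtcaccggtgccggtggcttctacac
Ndufb10: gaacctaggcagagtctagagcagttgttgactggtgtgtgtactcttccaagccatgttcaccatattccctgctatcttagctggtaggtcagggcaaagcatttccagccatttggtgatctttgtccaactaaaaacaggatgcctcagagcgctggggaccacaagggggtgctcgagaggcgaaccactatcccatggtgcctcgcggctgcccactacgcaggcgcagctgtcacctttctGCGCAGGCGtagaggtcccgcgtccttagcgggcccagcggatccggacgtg
Sdha: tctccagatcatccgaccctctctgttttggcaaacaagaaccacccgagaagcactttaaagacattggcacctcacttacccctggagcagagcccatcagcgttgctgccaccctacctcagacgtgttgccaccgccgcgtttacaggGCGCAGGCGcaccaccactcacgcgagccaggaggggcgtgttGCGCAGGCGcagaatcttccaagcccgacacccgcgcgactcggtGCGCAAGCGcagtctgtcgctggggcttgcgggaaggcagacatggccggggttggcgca
Cox7b: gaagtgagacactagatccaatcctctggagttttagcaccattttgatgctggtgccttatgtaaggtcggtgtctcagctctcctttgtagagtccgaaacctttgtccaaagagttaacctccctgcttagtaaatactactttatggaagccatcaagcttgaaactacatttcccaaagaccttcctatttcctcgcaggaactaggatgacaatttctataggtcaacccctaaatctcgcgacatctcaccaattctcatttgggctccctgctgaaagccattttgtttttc
Atp5j: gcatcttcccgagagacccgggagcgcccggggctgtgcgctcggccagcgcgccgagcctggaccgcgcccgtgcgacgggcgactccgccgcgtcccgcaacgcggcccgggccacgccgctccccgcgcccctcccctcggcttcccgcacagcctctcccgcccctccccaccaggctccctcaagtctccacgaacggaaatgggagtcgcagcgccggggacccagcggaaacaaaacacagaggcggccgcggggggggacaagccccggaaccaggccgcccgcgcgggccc

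The window of Sdha held 3 matches, that of Ndufaf4 2 overlapping ones on opposite strands, that of Ndufb10 1, and those of Cox7b and Atp5j none. Where several windows were listed for a gene, only the first was searched, as for Atp5j with 2. Over the 58 members with a window, 14 (24.1%) held a match, against 12.1% of 6573 windows of array genes and 6.47% of all 27025 windows. The ETS letters bound by GABP (CCGGAAG) were in 15 (25.9%), against 15.7% and 9.12%, and in none of the 5 windows printed. The estrogen-related receptor letters TCAAGGTCA were in 1 (1.72%), against 0.259% and 0.407%. The letters of the interferon-gamma activated site (TTCNNNGAA) were in 5 members (8.62%), against 7.14% and 8.47%, and those of the interferon-stimulated element (GAAANNGAA) in 5 (8.62%), against 7.24% and 8.57%. Both strands were searched. A match describes letters only.

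The remaining comparisons called no member. Averaged over all pairs, the genotypes differed for 0 of 71 members, against 0.218% of all genes; 3 members had an unadjusted p under 0.05 (8.61% of all genes), led by Sdha at -0.15 ± 0.054. For early times minus controls 0 members were called (0% of all genes), and 3.48% of all genes had an unadjusted p under 0.05. For the 4 h pair against the other 10 pairs 0 members were called, against 3.36% of all genes, and the median member stood at 0.11. Between PBS and untreated livers 0 members were called, against 0.0242% of all genes; 9 had an unadjusted p under 0.05 (11.7% of all genes), 5 higher and 4 lower, and the median was 0.070.

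The other lists hold genes that work with the chain. Of 19 measured assembly factors outside the symbol rule, 2 were called at 2 h and 2 at 4 h, against 1.66% and 5.03% of all genes, and 0 in the late pairs (0.836% of all genes). Of these, Sdhaf1, which helps insert the iron-sulphur clusters of Sdhb, fell by 0.46 ± 0.079 at 2 h and by 0.51 ± 0.079 at 4 h (adjusted p = 0.00689 and 0.00170). In IFNg-/- livers its level was then 6.36 and 6.34, and in SOCS1-/-IFNg-/- livers 6.16 and 6.08, below all controls at 6.61 to 6.85. Also at 4 h Coa6, a complex IV assembly factor, fell by 0.75 ± 0.13 (adjusted p = 0.00404), and at 2 h Foxred1, a complex I assembly factor, rose by 0.48 ± 0.088 (adjusted p = 0.0103). Among 19 citric acid cycle and pyruvate genes, Cs, citrate synthase, fell by 0.53 ± 0.13 at 4 h (adjusted p = 0.0306), Pdk4, which inhibits pyruvate dehydrogenase, rose by 0.69 ± 0.15 at 2 h (adjusted p = 0.0318), and Pcx, pyruvate carboxylase, rose by 0.42 ± 0.085 over the late times (adjusted p = 0.0405). Among 16 regulators of mitochondrial biogenesis, Pprc1, a relative of PGC-1, rose by 0.90 ± 0.16 at 4 h (adjusted p = 0.00493), to 5.09 in SOCS1-/-IFNg-/- and 4.22 in IFNg-/- from controls of 3.63 to 3.87. Nfe2l2, a regulator of antioxidant genes, rose by 0.57 ± 0.10 at 12 h (adjusted p = 0.0104). Of 61 mitochondrial ribosomal proteins, Mrpl18 fell at 4 h by 0.46 ± 0.079 (adjusted p = 0.00369). In the citric acid cycle, biogenesis and ribosomal lists, each comparison named held 1 call. Of all genes 1.66% were called at 2 h, 5.03% at 4 h, 1.42% at 12 h and 0.594% over the late times. At 4 h, 1 in 61 is below the share of all genes, and 1 in 19 or 1 in 16 is close to it. Without the PBS 12 h pair the calls of Sdhaf1, Foxred1, Coa6, Pdk4, Pprc1, Nfe2l2 and Mrpl18 held, and those of Cs (-0.45 ± 0.14, adjusted p = 0.117) and Pcx (0.38 ± 0.10, adjusted p = 0.142) did not. The call of Pcx was lost in 8 of 11 fits that each left out 1 pair, that of Pdk4 without the untreated or the PBS 4 h pair, and that of Nfe2l2 without the untreated pair. Some cell type markers were also called. At 4 h the hepatocyte marker Tat fell by 1.04 ± 0.16 (1 of 9 called, adjusted p = 0.00141). The Kupffer cell markers C1qb and Cd14 rose by 0.56 ± 0.13 and 0.40 ± 0.071 (2 of 9 called, adjusted p = 0.0181 and 0.00417). At 16 h the stellate cell marker Reln fell by 0.74 ± 0.14 (1 of 7 called, adjusted p = 0.0304; 0.448% of all genes). Without the untreated pair the calls of C1qb and Reln were lost.

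In the late pairs the genes of the citric acid cycle list had a median of -0.17, with 17 of 19 lower and 0 called, and mitochondrial ribosomal proteins one of -0.069, with 41 of 61 lower and Mrps15 called lower (-0.50 ± 0.090, adjusted p = 0.0307). Sirt3, the mitochondrial deacetylase, was called lower by the same test (-0.40 ± 0.072, adjusted p = 0.0307), as was catalase, Cat (-0.49 ± 0.098, adjusted p = 0.0393). Mrps15, Sirt3 and Cat were the only calls in their lists of 61, 16 and 9 measured genes, where 0.836% of all genes were called. The calls of Sirt3 and Mrps15 were lost without the 12 h, the 16 h or the 48 h pair, and that of Cat in 7 of 11 fits that each left out 1 pair. Over all pairs Nnt, the transhydrogenase of the inner membrane that makes NADPH, was lower in SOCS1-/-IFNg-/- by a difference of -0.83 ± 0.10 (adjusted p = 0.00354). It lay between 6.48 and 6.92 on the 11 SOCS1-/-IFNg-/- arrays and between 6.69 and 7.98 on the 11 IFNg-/- arrays, of which the 12 h array was the lowest. The cause of this Nnt difference was not tested. In the 4 h pair against the other pairs, Ppara, the nuclear receptor for fatty acid oxidation, was lower in SOCS1-/-IFNg-/- (-1.94 ± 0.33, adjusted p = 0.00300), and Pprc1 (0.82 ± 0.21), Sdhaf2 (0.72 ± 0.19), Mrpl44 (0.80 ± 0.17), Mrpl24 (0.53 ± 0.14) and Gsr (0.58 ± 0.14) were higher (adjusted p of 0.0162 to 0.0492). That comparison rests on 1 pair, whose IFNg-/- array had the low Irf1 value given above.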

How the data were processed

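Transcript levels of 22 mouse livers were measured on Affymetrix 3′ arrays. Total RNA was purified with Trizol and RNeasy and labelled with biotin as cRNA, per the labels' protocols. The authors deposited normalized log2 values, 1 for each probe set; affy is the package named in the submitters' processing notes, and how background was corrected and probes summarised was not given in the sources used here. That the scale is log2 was judged from its range, 1.73 to 13.5. The medians of the arrays ran from 5.64 to 5.71.

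Of 12488 probe sets, 66 controls, 396 with several symbols and 1193 with none were left out; 8251 genes remained, each with its brightest probe set. Symbols of all 71 members matched RefSeq (GRCm38.p6) by gene identifier. Members, lists and comparisons were chosen with earlier results of these data known. Named are members called in any comparison, the 3 per complex with the largest moderated t early and late, all Sdh subunits, isoform pairs and assembly factors. Called genes of the other mitochondrial lists are also named, as are cell type markers called at a single time or in the late pairs.

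Tests used limma 3.58.1 in R 4.3.3 with Benjamini-Hochberg adjustment over all 8251 genes at 0.05. Time responses came from an additive model of condition and genotype (10 residual degrees of freedom). Genotype differences came from the 11 within-pair differences (8 residual degrees of freedom; 9 for the 4 h pair against the others). The fits were tested on simulated data, with independent noise for each gene and no effect of condition or genotype except the one added. The late pairs alone and the 2 h comparison were not simulated, so the simulation does not bear on the calls there. The number of arrays limits precision, shown here by standard errors. Alternatives were another probe set per gene, a filter on dim genes, other centring or normalization, array weights, trended and robust variances, an unpaired model and leaving out each pair; centring on bright genes and the control and late pairs taken alone were added after the data were seen.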

Additional observations from a re-analysis of the deposited data

Results flagged for a closer look

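In IFNg-/- livers the median member at 4 h was at -0.094, apart from the other 3 early arrays (-0.046, -0.038 and -0.044). Among the 4 late IFNg-/- arrays, Sdhc at 24 h (9.58) and Cox7b at 24 h (8.91) stood apart as the lowest, and Uqcrc2 at 48 h (8.72) as the highest. The check ran over the complex medians, the median over members, the Sdh subunits and the called members, early and late in each genotype. Chance alone marks about 1 in 20 such groups, so a few marks would arise by chance here.

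Every late array moved one way in one genotype and the other way in the other, relative to its own controls, for 3 members. These differences were not tested as such, and the share of all genes that did so is not given here. In SOCS1-/-IFNg-/- the margin was slight for Cox6b1, with a late minimum of 6.086 against a control mean of 6.082. It was also slight there for Ndufs4, with a late maximum of 4.905 against 4.916. Between the genotypes' mean late differences, the values were 0.20 for Cox6b1, -0.37 for Ndufa9 and -0.12 for Ndufs4.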

How the results depend on the processing

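Across 20 alternative fits and the count over the 64 structural subunits of liver alone, the member medians early, late and between genotypes kept their direction. The number of members called at 2 h (1) became 0 with the mean of probe sets, with genes above the median level only, with arrays centred on their median or on bright genes and with structural subunits only, and 2 with array weights. At 4 h (1) it became 0 with genes above the median level only, with array weights and with structural subunits only, and 3 with quantile normalization; the filters on level and on structural subunits remove Ndufaf4 itself, and for the others the cause was not tested. For late minus control pairs, array weights called 9 members in place of 0, and the median was -0.20 with quantile normalization and -0.18 with centring on bright genes, against -0.27. For late pairs alone, 10 members were called among genes above the median level, 3 with quantile normalization, 13 with array weights, 0 with the unpaired model and 3 with centring on bright genes, which moved the median to -0.0999; the cause was not tested. Leaving out 1 pair at a time gave 0 to 1 members called at 2 h, at 4 h and early, 0 to 11 in late pairs, and a late minus control median of -0.34 to -0.20. The shares of all genes called under these alternatives are not given here. The counts therefore do not tell whether the members alone, or genes in general, gained or lost calls. Early, Cox8c turned to 0.020 with its most variable probe set. No paired analysis by replicate number was possible because the labels carry no replicate numbers. Signal over background limits the 12 members below the median gene, and no array was replicated.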

Other observations

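The probe sets that the rule left out gave further values for the chain. The 10 probe sets with several symbols, whose second name is mostly a pseudogene or a near-identical copy, had medians of -0.051 early and -0.079 late, lower on 10 of 10 in both periods. For late minus control pairs they had a median of -0.27, lower on 9 of 10. They included Cox7c (-0.31 and -0.20 on its 2 probe sets), Ndufs5 (-0.34) and Ndufa11 (-0.27), with Ndufb4 at 0.11 as the exception. The 27 further, dimmer probe sets of members did not share this: 12 of 27 were lower in that comparison, with a median of 0.064, and 16 of 27 had the sign of the brighter probe set of the gene.

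In the late pairs the 14 core subunits had a median of -0.18 and the 50 accessory ones of -0.16, while the 5 isoforms of other tissues had one of 0.043. In the early period the medians were -0.054, -0.10 and -0.058. These are descriptions of member lists with no test.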
